A study of Mus musculus with 6 samples.

Results

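Skeletal muscle RNA in newborn testis samples was followed through 9 genes: Acta1, Ckm, Myh3, Myh8, Tnnt3, Tnnc2, Myog, Actn2 and Trim63. They were taken as every non-control probe that the array names for one of these genes, which gave 16 of 55681 probes, printed as 25 spots on each array. Of these, 14 probes passed the filter on dim probes, which asks that both arrays of 1 genotype or more be well above background, so that all 9 genes were among the 24553 tested. The genes were chosen by measured values of these same arrays: Trim63 by its low signal in HEMI against WT, and the others as skeletal muscle genes whose spread between animals of a genotype was already known. The question asked of them was whether Trim63 follows the other 8.

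RNA from whole testes of male mice at postnatal day 0, of a mixed FVB.129/Sv background, was hybridised to 1-colour Agilent arrays, with 2 animals and 2 arrays in each of 3 genotypes. All 6 animals carried the Ddx4-cre transgene (Vasa-cre), which expresses Cre recombinase in germ cells. VSKO animals had 1 deleted and 1 floxed Sin3a allele, HEMI animals had 1 deleted and 1 intact allele, and WT animals had both alleles intact. The labels call the hemizygosity germ cell-specific, and whether other cells also carry the deleted allele is not stated in them. The arrays lay on 1 slide with 1 scan, VSKO and HEMI in row 1 and WT in row 2, so row and genotype cannot be told apart in the comparisons with WT. Between 59.2% and 64.5% of non-control spots were well above background on an array. The testis markers were present on all 6 arrays: 12 of 12 germ cell, 10 of 10 Sertoli cell and 8 of 8 tested fetal Leydig cell genes were well above background on each. Sin3a itself, the scaffold of a histone deacetylase corepressor complex, stood at 0.50 ± 0.16 on the log2 scale in VSKO (SD, n = 2), at 0.89 ± 0.00 in HEMI and at 1.1 ± 0.01 in WT, and no pair of genotypes differed past the threshold.

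Striated muscle contracts through the sarcomere, in which myosin heavy chains pull on actin filaments and the troponin complex switches the pull on with calcium. Myogenin drives the final step of muscle differentiation by binding short E-box sequences. Trim63, also called MuRF1, is a ubiquitin ligase of the sarcomere that is best known as a gene switched on in wasting muscle, where FOXO factors and the glucocorticoid receptor act on its promoter. A testis has no skeletal muscle of its own, although muscle lies close by in the cremaster and the body wall, and the peritubular myoid cells of the testis express smooth muscle genes.

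The promoters of Trim63 and of 3 muscle genes are shown because that of Trim63 holds short sequences that the other 3 lack. They are RefSeq sequences of build GRCm38.p6, covering the 250 bases before each gene's start and read on the gene's strand. Capitals mark the E-box letters CANNTG, the letters GTAAACA that FOXO factors bind, and TGTTCT, which is a part of the glucocorticoid receptor's element, on either strand. The windows lie at chr4:134314870-134315119 on the plus strand for Trim63, chr1:134289754-134290003 on the plus strand for Myog, chr8:123894776-123895025 on the minus strand for Acta1 and chr2:164779735-164779984 on the minus strand for Tnnc2.
Trim63 promoter: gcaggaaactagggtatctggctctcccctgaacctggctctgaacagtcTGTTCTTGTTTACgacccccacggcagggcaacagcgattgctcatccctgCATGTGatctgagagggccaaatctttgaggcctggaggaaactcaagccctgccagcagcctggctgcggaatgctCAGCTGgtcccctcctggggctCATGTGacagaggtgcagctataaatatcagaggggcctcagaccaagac
Myog promoter: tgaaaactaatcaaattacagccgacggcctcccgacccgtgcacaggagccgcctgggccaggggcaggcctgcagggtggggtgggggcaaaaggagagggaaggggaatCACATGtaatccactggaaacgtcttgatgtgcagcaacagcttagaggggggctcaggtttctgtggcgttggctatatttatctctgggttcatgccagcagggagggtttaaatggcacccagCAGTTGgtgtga
Acta1 promoter: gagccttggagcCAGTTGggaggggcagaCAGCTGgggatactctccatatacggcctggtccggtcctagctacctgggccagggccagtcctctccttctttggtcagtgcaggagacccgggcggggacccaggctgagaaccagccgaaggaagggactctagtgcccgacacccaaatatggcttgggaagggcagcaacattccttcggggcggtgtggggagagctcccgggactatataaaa
Tnnc2 promoter: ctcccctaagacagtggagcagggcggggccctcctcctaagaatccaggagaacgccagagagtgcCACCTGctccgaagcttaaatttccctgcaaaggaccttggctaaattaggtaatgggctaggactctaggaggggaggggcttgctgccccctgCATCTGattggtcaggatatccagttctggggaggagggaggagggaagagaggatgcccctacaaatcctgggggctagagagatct
In the Trim63 window, TGTTCT starts 200 bases before the start and is followed directly by the FOXO letters, read as TGTTTAC on this strand. Promoter sequences were matched for 8 of the 9 genes, all but Tnnt3. Of these 8, only Trim63 held the FOXO letters or TGTTCT, which 3.17% and 16.1% of 32851 mouse promoter windows of the same length hold. All 8 held an E-box, as do 66.2% of those windows, so the E-box letters do not set the group apart. TATAAA was found in 4 of the 8 (12.4% of all windows) and the letters CATTCC, the MCAT element, in Acta1 and Trim63 (12.6%). These matches are descriptions of sequence, and no binding was measured.

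The array's own probes decide what each value measures, and 3 probes that hold an open reading frame are shown for that reason. The Myh3 and Myh8 probes read related stretches of 2 myosin heavy chains, from bases 5779 and 5937 of their transcripts, and capitals mark the 29 bases that match among 48 aligned.
Myh3 probe: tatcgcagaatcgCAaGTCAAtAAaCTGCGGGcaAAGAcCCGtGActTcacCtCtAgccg
Myh8 probe: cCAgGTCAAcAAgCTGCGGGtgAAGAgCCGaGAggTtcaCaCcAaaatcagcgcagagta
Trim63 probe: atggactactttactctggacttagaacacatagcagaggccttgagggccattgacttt
The Myh3 probe shown lies at chr11:66915107-66915166 and the Myh8 probe at chr11:67121925-67121984, both on the plus strand of the build the array was designed on (mm9). The Myh8 probe is the one behind the values of its gene, while those of Myh3 come from its brighter probe, at chr11:66915724-66915783. The Trim63 probe shown lies at chr4:133881557-133881616 on the plus strand and is the dimmer of the 2 Trim63 probes. The brighter, used for the gene's values below, starts at base 1366 of the same transcript, at chr4:133885025-133885084. The Ckm and Actn2 probes span 2608 and 2373 genomic bases for 60 bases of probe, so they cross a splice junction. The 2 Tnnt3 probes share 27 bases and are no independent readings. Cross-hybridisation of the Acta1 probe with other actin transcripts was not tested.

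The 8 muscle genes other than Myh3 and Myog varied between animals of the same genotype in a common order, which Trim63 did not share. Levels are log2 of the processed signal less the array's 75th percentile, so 0 is the signal of the 75th percentile spot and a step of 1 is a doubling. They compare a gene between arrays and not 1 gene with another. Acta1, the actin of the skeletal thin filament, had levels of 1.57 and 2.67 in VSKO animals 1 and 2, 2.32 and 3.70 in HEMI and 3.52 and 1.96 in WT. HEMI 2 and WT 1 were high and VSKO 1 was lowest, and all 3 genotypes overlapped. Tnnc2, the calcium-binding troponin C of fast muscle, had the widest range, with -1.54 and 2.12 in VSKO, 1.99 and 3.73 in HEMI and 3.99 and 0.38 in WT. Tnnt3, the troponin T of fast muscle that anchors the complex on tropomyosin, had -3.24 and -0.58 in VSKO, -0.45 and 1.52 in HEMI and 1.48 and -2.38 in WT. The order of arrays was nearly that of Acta1: VSKO 1 and WT 2 were low, and VSKO and WT overlapped. Ckm, the muscle creatine kinase that buffers ATP, had -4.59 and -1.63 in VSKO, -2.17 and 0.13 in HEMI and 0.07 and -3.78 in WT, which puts the WT animals 3.85 apart.

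The developmental myosins divided. Myh8, the perinatal myosin heavy chain, had 0.95 and 2.01 in VSKO, 2.32 and 3.56 in HEMI and 3.76 and 1.36 in WT. Myh3, the embryonic heavy chain, had 1.28 and 1.21 in VSKO, 0.28 and 1.94 in HEMI and 2.51 and 1.01 in WT. Myh8 had VSKO 1 lowest, while Myh3 had HEMI 1 lowest and VSKO animals that were nearly equal. The other Myh3 probe gave the same pattern, with 0.63 and 0.63 in VSKO, -0.17 and 1.34 in HEMI and 1.90 and 0.40 in WT. The other Myh8 probes did not all do so. A probe towards the 5′ end of the transcript was well above background on 4 of 6 arrays. It had the low arrays of the main probe, VSKO 1 and WT 2 (-7.75 and -3.79 in VSKO, -5.47 and -3.72 in HEMI, -3.82 and -6.81 in WT). HEMI 2 and WT 1 were high as with the main probe, but VSKO 2 was level with them. A probe designed on another Myh8 transcript stayed between -2.29 and -1.63 on all 6 arrays, and the fourth was not well above background on any.

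Actn2, the alpha-actinin that crosslinks actin at the Z-disc, had -3.15 and -2.84 in VSKO, -2.59 and -0.70 in HEMI and -0.79 and -2.71 in WT. Its high arrays were again HEMI 2 and WT 1, and its VSKO animals lay below both WT animals. The other Actn2 probe was not well above background on any array. Myog, the differentiation factor, had -3.77 and -3.23 in VSKO, -3.90 and -3.29 in HEMI and -3.29 and -2.31 in WT. It was highest in WT 2, where the sarcomere genes were low. Myog was printed 10 times, and the SD between its spots was 0.07 to 0.23 within an array, against a range of 1.60 over the arrays. In WT 2, 2 of its spots were left out as outliers, and with them its level was -2.34.

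Trim63 had -3.64 and -3.88 in VSKO, -4.43 and -4.66 in HEMI and -2.52 and -2.37 in WT. The animals of a genotype lay close together, the 3 genotypes did not overlap, and the order was WT, then VSKO, then HEMI. Its processed signal was 31.2 to 145.1 intensity units, above the lowest signal that counted as well above background on any array (13.3 to 19.6). The dimmer Trim63 probe had -4.85 and -5.72 in VSKO, -6.15 and -6.68 in HEMI and -3.92 and -4.40 in WT, and was well above background on 3 of 6 arrays. It put the genotypes in the same order, again with no overlap.

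**Figure D1:**
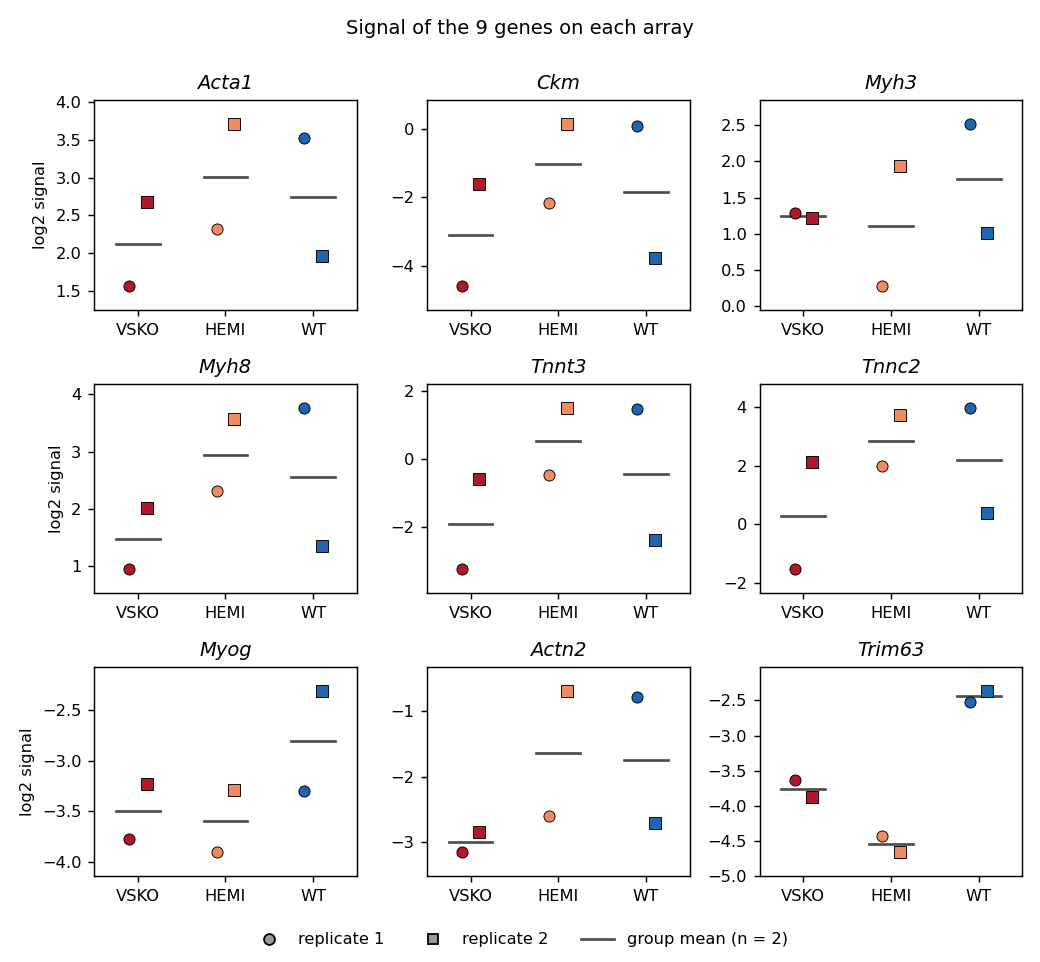
Log2 signal of each of the 9 genes (vertical axes, own scale for each gene) in VSKO, HEMI and WT; circles are replicate 1, squares replicate 2 and bars the mean of n = 2 animals. Acta1, Ckm, Myh3, Myh8, Tnnt3, Tnnc2 and Actn2 have HEMI 2 and WT 1 as their 2 highest arrays, and Myog does not. The Trim63 animals stand apart by genotype, from -2.37 in WT 2 to -4.66 in HEMI 2.

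Animals of the same genotype were then compared, to see whether Trim63 moves with the muscle genes where the labelled genotype is the same. Subtracting animal 2 from animal 1, the median of the 8 muscle genes was -1.08 in VSKO (7 of 8 negative), -1.70 in HEMI (8 of 8 negative) and 2.16 in WT (7 of 8 positive). As folds these medians are 2.11, 3.24 and 4.48. Myh3 in VSKO (0.07) and Myog in WT (-0.99) went the other way. Trim63 differed by 0.24 in VSKO, 0.23 in HEMI and -0.16 in WT, opposite in sign to the muscle median in each genotype. The median size over all genes was 0.22, 0.17 and 0.16. Normexp background correction turned the Trim63 difference in VSKO to -0.04, and with the mean of both Trim63 probes the differences were 0.55 in VSKO, 0.38 in HEMI and 0.16 in WT.

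**Figure D2:**
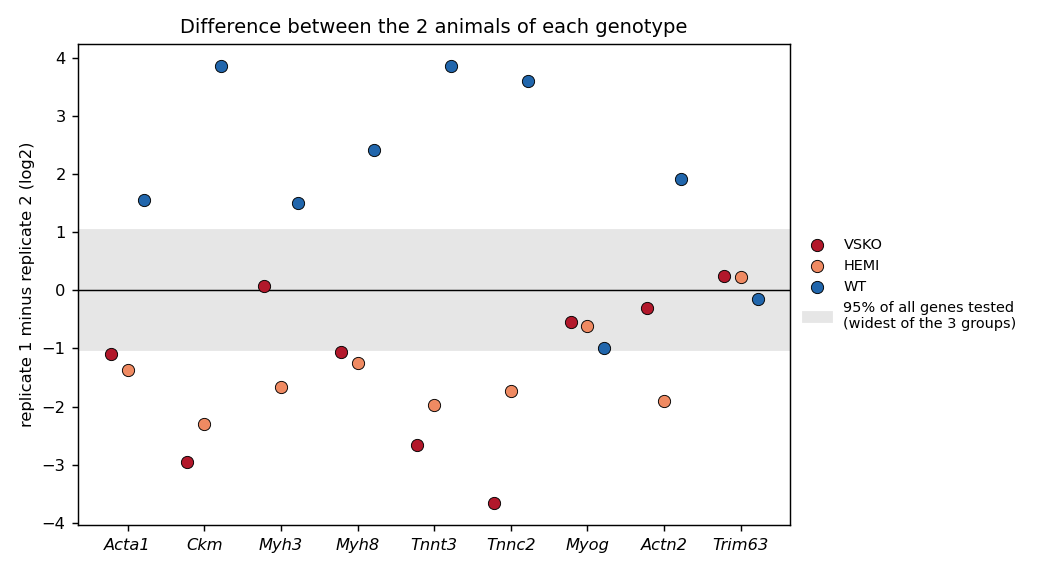
Replicate 1 minus replicate 2 (log2, vertical axis) of the 9 genes in each genotype; the grey band holds 95% of all genes tested, taken from VSKO, where it is widest (1.03 in size). Acta1, Ckm, Myh8, Tnnt3 and Tnnc2 lie outside the band in all 3 genotypes, from -3.66 to 3.86, and Trim63 lies between -0.16 and 0.24.

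Of the 8 muscle genes, 6 had the order VSKO 1 below 2, HEMI 1 below 2 and WT 1 above 2, all but Myh3 and Myog. Of all genes tested, 13.7% had that order. With each of the 3 differences at least 1 in size, the count was 5 of 8 (Acta1, Ckm, Myh8, Tnnt3 and Tnnc2), against 0.13% of all genes. The order was read from these genes, so the counts describe them. Averaged over the 8 genes, the level was -1.56 and -0.03 in VSKO, -0.28 and 1.32 in HEMI and 1.41 and -0.81 in WT. Ranked from the highest array, the muscle mean runs WT 1, HEMI 2, VSKO 2, HEMI 1, WT 2, VSKO 1. Trim63 runs WT 2, WT 1, VSKO 1, VSKO 2, HEMI 1, HEMI 2. Over the 6 arrays, which share a slide and scaling, Pearson's r of each gene with the mean of the other muscle genes was 0.99 for Acta1, 0.98 for Ckm and Myh8, 0.97 for Tnnt3, 0.95 for Tnnc2 and 0.92 for Actn2. It was 0.64 for Myh3, -0.02 for Myog and -0.10 for Trim63. The r and rank order of Trim63 include its low HEMI and high WT levels, for which it was chosen, so they only describe it. Between animals of a genotype, Trim63 differed by at most 0.24 in size with the probe used. The muscle medians there were 1.08 to 2.16 in size, so within genotypes Trim63 did not follow the sarcomere genes. Myog did not follow them from array to array.

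**Figure D3:**
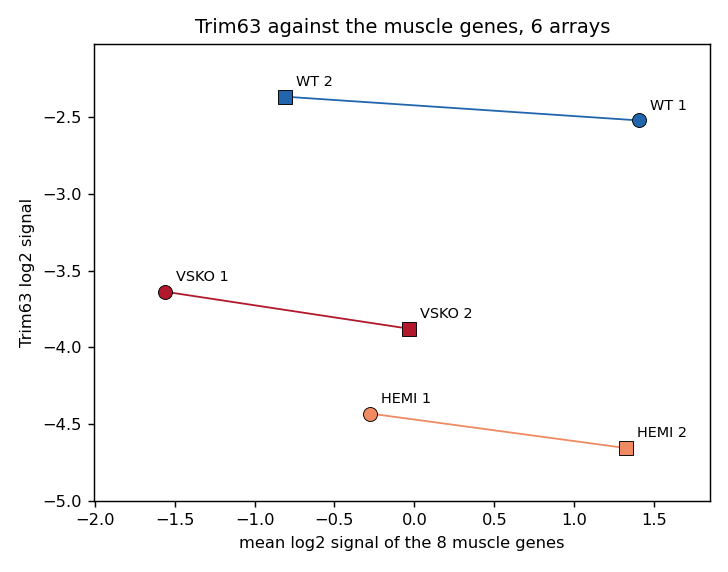
Trim63 log2 signal (vertical) against the mean log2 signal of the 8 muscle genes (horizontal), 1 point per array, with a line joining the 2 animals of each genotype. The lines run nearly level: WT animals 2.21 apart on the muscle axis differ by 0.16 in Trim63, and HEMI animals 1.60 apart by 0.23.

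VSKO was compared with WT for the loss of both Sin3a alleles from germ cells. All 8 muscle genes had lower means in VSKO, with a median difference of -1.16 on the log2 scale, and none passed the test (limma adjusted p from 0.503 for Myog to 0.779 for Myh3; 0 of 8 at an unadjusted p under 0.05, against 14.7% of all genes). Tnnc2 differed most, by -1.89 ± 1.68 (SE), then Tnnt3 by -1.46 ± 1.57 and Ckm by -1.25 ± 1.66. The median depended on single animals: it was 0.14 without WT 1, -2.25 without WT 2 and -0.28 without VSKO 1. Without WT 1 the differences of Acta1, Ckm, Myh3, Myh8 and Tnnt3 turned positive, and without VSKO 1 that of Ckm did (0.23). Fewer muscle cells and less RNA in each cannot be told apart in whole tissue. Trim63 fell by 1.32 ± 0.16 (SE, limma adjusted p = 0.0433), which is 2.49-fold, and was the only 1 of the 9 genes called, where 0.965% of all genes were. The VSKO arrays lay below the WT arrays without overlap for Actn2 and Trim63, as they did for 23.4% of all genes. This comparison uses the WT arrays that also entered the choice of Trim63, so it is no independent evidence. The call was lost in 13 of the 18 other settings, leaving out any of the 6 arrays among them, with adjusted p up to 0.267. These settings are not all separate checks. Leaving out either HEMI array gave the same fit as comparing only the 2 groups, and the series table gave the same as median scaling. The difference kept its sign in each, from -1.44 to -0.88, the smallest with normexp background correction.

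In HEMI against WT, where the labelled genotypes differ by 1 deleted allele and the arrays also by slide row, Acta1, Ckm, Myh8, Tnnt3, Tnnc2 and Actn2 had higher and Myh3 and Myog lower means. The median difference of the 8 was 0.33, and none passed the limma test (adjusted p from 0.509 to 0.970; 0 of 8 at an unadjusted p under 0.05, against 12.4% of all genes). The largest was Tnnt3 at 0.98 ± 1.57, and HEMI and WT arrays overlapped for all 8. Trim63 did not overlap, with HEMI below WT as in 28.4% of all genes. The sign of the median depended on single animals: it was -0.90 without WT 2 and -0.36 without HEMI 2, and it was 1.32 without WT 1 and 1.02 without HEMI 1. Trim63 was lower in HEMI by 2.10 ± 0.16 (SE), which is 4.29-fold. This is the difference for which the gene was chosen and carries no test here; it was from -2.25 to -1.20 in the other settings, again smallest with normexp. By the rule used for the other comparisons 1 member, Trim63, would pass, with 0.118% of all genes, and would not in 12 of 18 other settings. Some of these settings repeat the same fit, as in VSKO against WT. Nothing is read from the counts, since the gene was chosen for this difference.

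VSKO against HEMI compares animals that share the deleted allele and the slide row. Acta1, Ckm, Myh8, Tnnt3, Tnnc2 and Actn2 had lower means in VSKO, by a median of -1.40 over the 8 genes, and the differences of Myh3 and Myog were 0.14 and 0.10. The median was -0.67 without VSKO 1, -0.62 without HEMI 2 and -2.19 without HEMI 1. None passed the limma test (adjusted p 0.922 for Myh8 and higher for the others; 0 of 8 at an unadjusted p under 0.05, against 7.69% of all genes). The VSKO arrays lay below the HEMI arrays without overlap for Myh8, Tnnt3 and Actn2, as they did for 14.1% of all genes. Trim63 was higher in VSKO, by 0.79 ± 0.16 (SE), without overlap (18.8% of all genes lay so), and did not pass (limma adjusted p = 0.210). It was the only 1 of the 9 with an unadjusted p under 0.05, and the share of all genes called was 0.143%. The HEMI arrays compared here also entered the choice of Trim63, for its low signal in them. Its higher level in VSKO is therefore no independent evidence.

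**Figure D4:**
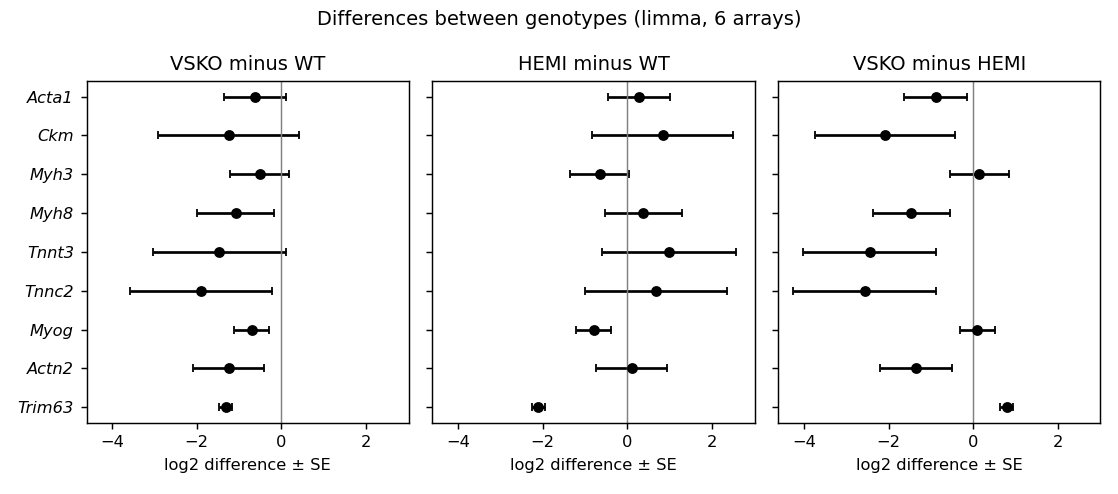
Log2 difference between genotypes (horizontal axes, with the SE of the limma fit) for the 9 genes in VSKO minus WT, HEMI minus WT and VSKO minus HEMI. The SE of Trim63 is 0.16 in each panel, and those of the muscle genes run from 0.41 for Myog to 1.68 for Tnnc2.

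With the mean of the 8 muscle genes added to the fit as a covariate, Trim63 differed by -1.44 ± 0.15 (SE) between VSKO and WT, -2.08 ± 0.13 between HEMI and WT and 0.64 ± 0.15 between VSKO and HEMI. Without the covariate they were -1.32, -2.10 and 0.79. That fit has 1 residual degree of freedom fewer, and it called 0 genes in all 3 comparisons, so the limma adjusted p of Trim63 rose to 0.106 for VSKO against WT.

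Other muscle genes followed the same arrays in part. Of 40 tested sarcomere genes outside the members, 27 had the order of the muscle genes (67.5%, against 13.7% of all genes). The differences of at least 1 were those of Actc1, the cardiac actin that fetal skeletal muscle also uses, the fast light chain Myl1, the troponin I Tnni2, the M-line protein Myom2, the myosin-binding protein Mybpc1, the Z-disc protein Myot and the LIM protein Csrp3. Actc1 had -2.28 and 0.50 in VSKO, 0.09 and 2.32 in HEMI and 2.77 and 1.24 in WT. Myl1 had -4.86 and 1.59 in VSKO, 1.47 and 3.29 in HEMI and 3.30 and -0.27 in WT. The brightest sarcomere genes, Pdlim3, Tpm2, Tnnt1 and Smyd1, moved much less, by -0.27 to 0.40 between the WT animals. No gene of this list passed between genotypes (limma). Of all genes 0.965% passed in VSKO against WT, 0.118% in HEMI against WT and 0.143% in VSKO against HEMI. At an unadjusted p under 0.05 were 5 of 40 in VSKO against WT, 2 in HEMI against WT and 2 in VSKO against HEMI. The shares of all genes in these comparisons were 14.7%, 12.4% and 7.69%. Of 25 tested genes of excitation-contraction coupling and muscle metabolism, 15 had the order, among them the sarcolipin gene Sln and the mitochondrial creatine kinase Ckmt2, and none changed between genotypes (3, 1 and 2 at an unadjusted p under 0.05).

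Of 17 tested myogenic and neuromuscular junction genes 4 had the order (23.5%). Myod1 and Myf5, the factors that commit cells to muscle, and the acetylcholine receptor genes Chrnd and Chrne did not pass the filter on dim probes. Msc, a repressor of myogenic factors also known as MyoR, fell in VSKO against WT by 1.22 ± 0.14 (SE, limma adjusted p = 0.0416). It was the 1 of 17 called, where 0.965% of all genes were. With no filter on dim probes, 12 genes in place of 237 were called in that comparison. Msc had -2.80 and -2.92 in VSKO, -2.95 and -3.21 in HEMI and -1.62 and -1.67 in WT. Its WT animals were both high and close together, as those of Trim63 were.

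Of 18 tested genes that work beside Trim63 in muscle wasting, 2 had the muscle order. In VSKO against WT 5 of the 18 had an unadjusted p under 0.05 (limma), in HEMI against WT 7 and in VSKO against HEMI 2. Of all genes 14.7%, 12.4% and 7.69% had such a p in the 3 comparisons. After adjustment 1 passed, Fbxo40 in VSKO against WT, where 0.965% of all genes did. Bnip3, a mitophagy receptor named after its values were seen, had 3.28 and 3.49 in VSKO, 3.34 and 3.37 in HEMI and 4.29 and 4.34 in WT, and did not pass (limma adjusted p = 0.0530 for VSKO against WT). Fbxo32, which encodes the other muscle ubiquitin ligase of wasting, atrogin-1, lay between -0.39 and 0.08 on all arrays and differed by 0.15 ± 0.18 (SE) between VSKO and WT. Of the close relatives of Trim63, Trim55 did not pass the filter on dim probes. Trim54 had -3.99 and -3.50 in VSKO, -4.44 and -3.37 in HEMI and -3.02 and -3.59 in WT, with overlapping genotypes. Fbxo40, a muscle ubiquitin ligase adaptor that acts on insulin receptor substrate, fell in VSKO against WT by 2.21 ± 0.25 (SE, limma adjusted p = 0.0386), with -5.65 and -5.39 in VSKO, -4.35 and -4.01 in HEMI and -3.60 and -3.01 in WT. The VSKO levels of Fbxo40 lay close to the lowest that counted as well above background on those arrays, -5.81 and -5.57. Its HEMI animals lay between the others, whereas those of Trim63 were the lowest. Foxo3, a FOXO factor named after its values were seen, had 0.28 and -0.13 in VSKO, -3.48 and -3.93 in HEMI and -1.46 and 0.16 in WT, and did not pass (limma adjusted p = 0.142 for HEMI against WT). None of 15 glucocorticoid response genes, Fkbp5 and Per1 among them, passed in any comparison (limma). Of all genes 0.965%, 0.118% and 0.143% passed in VSKO against WT, HEMI against WT and VSKO against HEMI. At an unadjusted p under 0.05 were 3 of 15 in each, with the shares of all genes as above. The differences of the 15 ran from -0.74 to 1.93, from -1.32 to 1.28 and from -1.01 to 1.55.

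Markers of other tissues that could be dissected with a testis were set beside these values. The summed linear level of the 8 muscle genes was 8.01 and 18.3 in VSKO, 16.4 and 46.5 in HEMI and 51.1 and 10.4 in WT. Smooth muscle markers went the other way in WT and HEMI: 10 of 10 were lower in WT 1 than in WT 2 (median -0.47), 9 of 10 were higher in HEMI 1 than in HEMI 2, and their summed level was 92.8 and 124.5 in VSKO, 111.9 and 92.5 in HEMI and 83.0 and 120.7 in WT. Acta2, the smooth muscle actin, differed by -0.56 between the WT animals, where Acta1 differed by 1.55. Of 9 mesonephric duct and rete markers, 9 were higher in HEMI 1 than in HEMI 2, with a summed level of 35.4 against 26.4. The duct factor Lhx1 was the 1 of them called, where 0.965% of all genes were. It was higher in VSKO than in WT by 1.25 ± 0.15 (SE, limma adjusted p = 0.0433). Of 11 cardiac markers 4 had the muscle order: the myosin light chains Myl2 and Myl3, the myosin-binding protein Mybpc3 and the heart factor Nkx2-5. Between the WT animals Myl2 differed by 2.73 and Myl3 by 3.14, Mybpc3 by 0.0016 and Nkx2-5 by 0.04. The summed level of 11 adipocyte markers was 8.64 to 14.2 and that of 9 peripheral nerve markers 12.4 to 14.1, and 2 of 11 and 0 of 9 had the muscle order. The tendon gene Comp was higher in VSKO than in WT by 1.59 ± 0.17 (SE, limma adjusted p = 0.0363). It was the 1 of 7 tested tendon markers called, where 0.965% of all genes were. Fetal Leydig cell markers of the testis itself were mostly lower outside WT. Over 8 tested genes the median difference was -0.66 in VSKO against WT and -0.66 in HEMI against WT. In VSKO 3 of the 8 were higher than in WT (up to 0.58), and in HEMI 1 was (0.62). At an unadjusted p under 0.05 were 5 of 8 in each (limma), against 14.7% and 12.4% of all genes. The summed level of these markers, to which bright genes add most, was 115.3 and 108.4 in VSKO, 96.7 and 118.6 in HEMI and 144.2 and 163.3 in WT. That sum separated WT from the other animals, as Trim63 did, but this was not particular to Leydig cell markers. The sums of the germ cell, Sertoli cell, myogenic and wasting lists were also highest in both WT animals. For the wasting genes they were 203.3 to 232.2 outside WT and 279.4 and 296.3 in WT. The cardiac and tendon sums were lowest in both WT animals. The androgen-making enzyme Cyp17a1 was the 1 that passed, at -1.40 ± 0.16 (SE, limma adjusted p = 0.0426) for VSKO against WT. Of all genes 0.965% passed in that comparison. The part of these tissues and cells in the values of Trim63 and the muscle genes was not tested.

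**Figure D5:**
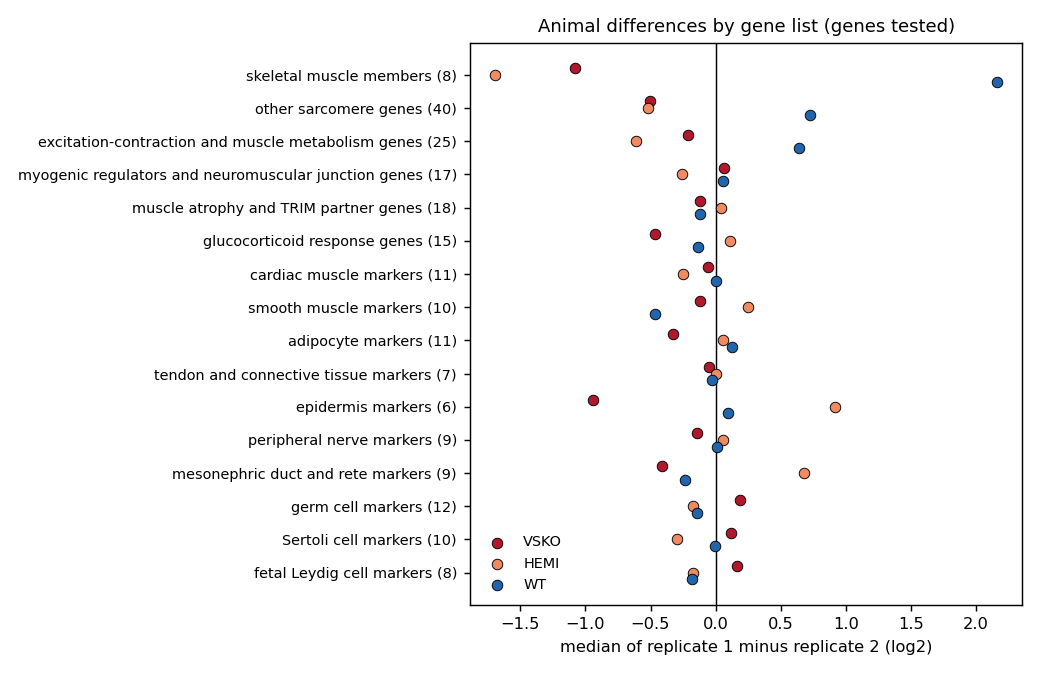
Median of replicate 1 minus replicate 2 (log2, horizontal) over the tested genes of each list, with their number in brackets, for the 3 genotypes. The 8 muscle genes reach -1.08, -1.70 and 2.16 in VSKO, HEMI and WT, the other sarcomere genes -0.50, -0.52 and 0.73, and smooth muscle markers -0.12, 0.25 and -0.47.

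The genes most like each pattern were read from 2359 named genes that were well above background on all arrays and ranged by at least 1. By Pearson's r over the 6 arrays, the 5 most like Trim63 were H2bc4, Syt1, Gm10046 and P2rx7 at 0.98 and Klf15 at 0.97. H2bc4, a histone H2B gene, had 2.17 and 2.21 in VSKO, 1.91 and 1.80 in HEMI and 3.21 and 3.42 in WT. Syt1 encodes a calcium sensor of synaptic vesicles, P2rx7 an ATP-gated channel, and Klf15 a glucocorticoid-induced factor that was also on the list of wasting genes. None of the 5 is a sarcomere gene. The 5 most like the mean of the 8 muscle genes were Sgca and Myoz1 at 1.00, Myom2 and Tceal7 at 0.99 and Mybpc1 at 0.98, of which Sgca encodes a sarcoglycan of the muscle membrane and Myoz1 a Z-disc protein. With 6 arrays and so many candidates, high values of r are found for many patterns.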

How the data were processed

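Total RNA of 6 testis samples was labelled with Cy3 and hybridised to 1-colour Agilent arrays. Per the file headers, the deposited scanner output gives 62976 spots an array, each with a processed signal (a linear intensity), the intensity of the spot and of its local background, and quality flags (unit: other) that mark outliers, saturation and signal well above background. Feature Extraction is given as version 8.5.1.1 per the submitters' processing notes and 10.7.3.1 for its modules per the file headers. The deposited series table of the authors holds the same intensity divided by the array's median, within 0.00105%, and was used as an alternative.

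The log2 processed signal was shifted by each array's 75th percentile over non-control spots (652.2 to 857.1 before scaling), outlier spots (99 to 116 an array) were left out, and spots of a probe were averaged. No spot was saturated. Probes were kept where both arrays of 1 group or more were well above background (34365), and the brightest probe of a gene over the 6 arrays stood for it. Gene names came from RefSeq (GRCm38.p6, used for names and promoter sequences); probe positions are those of the array (mm9). A linear model with a mean for each group (3 residual degrees of freedom) was fitted to the 24553 genes in limma 3.58.1 under R 4.3.3, with Benjamini-Hochberg adjustment over all genes; a gene changed where the adjusted p was under 0.05. The fit was tested on simulated data. Python 3.11.15 and pandas 2.3.3 were used for the summaries. Values are mean ± SD of n = 2 animals or difference ± SE, and the number of arrays limits their precision.

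The members and gene lists were chosen with earlier results of these data known. The named genes are the 9 members, of each list those that passed and some of the 4 brightest, Trim54, Trim55, Fbxo32 and Sin3a, and the 5 genes most like each pattern; genes that had the muscle order, Foxo3, Bnip3 and single markers of other tissues were named after their values were seen. Alternatives covered scaling, background correction, the filter on dim probes, the choice of probe, the design of the fit and leaving out each array.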

Additional observations from a re-analysis of the deposited data

How the results depend on the processing

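With 2 animals a group, the test reaches only differences well above the spread between animals, which was wide in most of the muscle genes. The size of their median difference between animals exceeded that of 95.4%, 98.7% and 99.6% of all genes in VSKO, HEMI and WT. Single genes outside the list differed more, down to -12.7 in HEMI. None of the 8 muscle genes passed in any setting run, and their directions turned only where an array was left out. Over the 6 fits without 1 array each, VSKO minus WT ran from -1.40 to 0.16 for Acta1, -3.18 to 0.68 for Ckm, -1.26 to 0.24 for Myh3, -2.29 to 0.12 for Myh8 and -3.39 to 0.47 for Tnnt3. HEMI minus WT ran from -0.50 to 1.05 for Acta1, -1.09 to 2.76 for Ckm, -1.48 to 0.18 for Myh3, -0.83 to 1.58 for Myh8, -0.95 to 2.91 for Tnnt3, -1.13 to 2.48 for Tnnc2 and -0.86 to 1.06 for Actn2, and VSKO minus HEMI from -0.69 to 0.97 for Myh3 and -0.21 to 0.40 for Myog. The cause was the array left out. Trim63 kept its direction in every setting run, but not its call. VSKO minus WT stayed at -1.32 and lost the call with no filter on dim probes, with the replicate block, with only the 2 groups compared and with a trend. It also lost the call with the mean of the kept probes (-1.22), with the muscle mean as covariate (-1.44) and with the other Trim63 probe alone (-1.13; chosen after seeing the data), and without 1 array (-1.44 to -1.19). HEMI minus WT stayed at -2.10 and lost the call with no filter, the replicate block and only the 2 groups compared; it did so at -2.18 with the mean of probes, -2.08 with the covariate, -2.25 with the other probe and -2.21 to -1.99 without 1 array. In these settings, where members were counted, the number called in VSKO minus WT and HEMI minus WT was 0 in place of 1, also over all fits without 1 array (0 to 0). Over all genes, the 237 called in VSKO minus WT became 12 with no filter, 42 with only the 2 groups, 0 with the covariate and 0 to 69 without 1 array. The 29 in HEMI minus WT became 55 with median scaling or the series table, 131 with normexp, 68 with probes well above background on all 6 arrays, 130 with a trend, 0 with no filter, 4 with only the 2 groups, 0 with the covariate and 0 to 8 without 1 array. The 35 in VSKO minus HEMI became 17 with quantile normalization, 74 with median scaling or the series table, 5 with no filter, 15 with probes well above background on all 6 arrays, 0 with only the 2 groups, 0 with the covariate and 0 to 41 without 1 array. Fits with fewer arrays or more terms have fewer residual degrees of freedom, and without the filter more genes are tested. For the other settings the cause was not tested. Leaving out an array of the group not compared gives the same fit as only the 2 groups, so the settings are not all separate checks. Over all genes, same-numbered replicates did not deviate together (correlation -0.01, -0.03 and -0.04 over the 3 pairs of groups), which cannot exclude pairing for some genes. With the replicate block 19, 0 and 0 genes were called in the 3 comparisons, Trim63 not among them. Myog was lower in replicate 1 of each genotype. Its SE fell from 0.41 to 0.17 with the block, and it was not called (limma adjusted p = 0.206 for VSKO minus WT and 0.274 for HEMI minus WT).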
